A study of Mus musculus with 18 samples.

Results

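The transcripts described here belong to 10 genes by which the resident macrophages of the liver, the Kupffer cells, are recognised: Clec4f, Cd5l, Vsig4, Timd4, Marco, Adgre1, Csf1r, Cd163, Folr2 and Cd207. They were taken from the count table by their symbols, 10 of 55487 genes, and all 10 had counts in every library (at least 10) and passed the filter on low counts in each comparison. RNA was from whole livers of male C57BL/6J mice, 1 library per mouse and 6 mice per group. All mice had received an adeno-associated virus of serotype AAV8, given retro-orbitally 1 week before the diets began, in which the hepatocyte promoter TBG drove either eGFP or human LIPA. LIPA encodes lysosomal acid lipase (LAL), which hydrolyses cholesteryl esters and triglycerides in lysosomes. CON-GFP mice had the GFP virus and a purified control diet, FPC-GFP mice the GFP virus and a diet rich in fructose, palmitate and cholesterol (FPC) with sugar in the drinking water, and FPC-LIPA mice the LIPA virus and the FPC diet. Mice were bought at 7 weeks of age, fed for 16 weeks and fasted for 4 h before collection. No group without virus and no LIPA group on the control diet was sequenced, so the vector is common to all samples and the effect of LIPA was measured on the FPC diet alone.

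Kupffer cells sit inside the liver sinusoids, where they take up bacteria, dying cells, old red blood cells and lipoproteins. They are seeded before birth and renew themselves locally, and monocytes that fill emptied places can take on the same genes over time. Their identity is known to depend on signals from endothelial and stellate cells, among them Notch ligands, BMPs and TGF-β, and on transcription factors such as LXRα (Nr1h3), Spi-C, ID3, PU.1 and c-MAF (Maf). In mouse liver, Clec4f and Timd4 are close to restricted to Kupffer cells, whereas Csf1r, Adgre1 and Cd163 are also made by other macrophages. In bulk RNA, a change in the number of Kupffer cells and a change in the RNA per cell cannot be told apart.

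Total counts per library were between 16632146 and 37739301. Ribosomal protein genes took 1.75 to 2.54% of counts in CON-GFP and 1.44 to 1.80% in FPC-GFP, and in FPC-LIPA 2.16 to 2.95% in mice 31, 33 and 34 but 6.48 to 8.15% in mice 36, 37 and 39. Fold changes that involve FPC-LIPA were therefore also computed without these 3 libraries. The ratios to Clec4f and the correlations given below were not. Mouse Lipa, from which the transgene differs in species, lay between 208 and 406 CPM in all libraries. Human LIPA was not analysed here, so the virus label was not checked against the RNA. The hepatocyte gene Alb averaged 51484 CPM.

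Clec4f and Cd207 encode C-type lectins and lie beside each other on the minus strand of chromosome 6 (GRCm38), Clec4f from 83644542 to 83656187 and Cd207 from 83671215 to 83677857, with 15027 bases between them. Cd5l is on chromosome 3 (87357881 to 87371073), Vsig4 on the X chromosome (96247203 to 96293438), Timd4 on chromosome 11 (46810800 to 46844332), Marco on chromosome 1 (120474538 to 120505024), Adgre1 on chromosome 17 (57358691 to 57483527), Cd163 on chromosome 6 (124304656 to 124330527) and Folr2 on chromosome 7 (101839988 to 101857194). RefSeq (GRCm38.p6) gave promoter windows, from 250 bases before to 50 bases after the start site, for 8 of the 10 genes (not Adgre1 and Csf1r) and 9 start sites. The 250 bases before the start are shown for Clec4f and Cd5l, the genes with most transcripts, and for Cd207 and Cd163, which moved apart from Clec4f in FPC-LIPA. They are written 5′ to 3′ on the gene's strand, and capitals mark matches to the motifs named after them, which did not overlap one another.
Clec4f, chr6:83656117-83656366, minus strand: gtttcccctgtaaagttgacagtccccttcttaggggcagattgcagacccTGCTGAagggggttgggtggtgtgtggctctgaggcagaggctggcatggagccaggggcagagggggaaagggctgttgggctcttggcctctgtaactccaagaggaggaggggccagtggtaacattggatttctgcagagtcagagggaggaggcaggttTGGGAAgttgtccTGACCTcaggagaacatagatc
Cd5l, chr3:87357631-87357880, plus strand: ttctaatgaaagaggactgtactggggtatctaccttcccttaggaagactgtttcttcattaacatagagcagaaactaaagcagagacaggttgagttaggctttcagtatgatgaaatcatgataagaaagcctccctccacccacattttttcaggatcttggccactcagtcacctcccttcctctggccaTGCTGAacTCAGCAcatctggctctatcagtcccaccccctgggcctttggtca
Cd207, chr6:83677858-83678107, minus strand: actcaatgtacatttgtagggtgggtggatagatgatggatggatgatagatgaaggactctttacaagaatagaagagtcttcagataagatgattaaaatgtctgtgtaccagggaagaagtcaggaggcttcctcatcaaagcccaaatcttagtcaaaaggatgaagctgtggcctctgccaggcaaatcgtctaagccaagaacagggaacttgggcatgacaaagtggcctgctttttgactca
Cd163, chr6:124304401-124304650, plus strand: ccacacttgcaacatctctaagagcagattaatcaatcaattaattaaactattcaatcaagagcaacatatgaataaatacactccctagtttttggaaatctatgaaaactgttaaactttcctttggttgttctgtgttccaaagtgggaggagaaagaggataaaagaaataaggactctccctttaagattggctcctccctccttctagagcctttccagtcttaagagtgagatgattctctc
The 4 motifs were searched on both strands over the whole windows. TGCTGA, the core bound by c-MAF, was in 6 of the 9 windows (Clec4f, Cd5l, Vsig4, Timd4 and both of Folr2), against 19.5% of all 32851 windows. TGGGAA, the core of RBPJ, was in 2 (Clec4f and Marco; 25.6% of all), the nuclear receptor half-site AGGTCA in 2 (Clec4f and Timd4; 16.3% of all) and AGGAAGT, a PU.1 motif, in 1 (Folr2; 9.35% of all). The windows of Cd207 and Cd163 held none of these letters. A match is a run of letters and does not show that a factor binds.

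The first comparison asked what the FPC diet did to these genes. Kupffer cell transcripts rose: 8 of 10 were higher after the FPC diet, each at least 2-fold, and none was lower (edgeR's quasi-likelihood test, Benjamini-Hochberg adjusted p under 0.05, called hereafter). Over all 14307 genes tested, 12.9% were called higher and 10.9% lower. The median log2 fold change of the 10 genes was 1.18, against 0.01 for all genes. For 5 of the 10, every FPC-GFP mouse was above every CON-GFP mouse, and 10.4% of all genes did not overlap between these groups.

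Clec4f, the lectin that defines mouse Kupffer cells, had 42.9 to 91.5 CPM in CON-GFP (TMM-scaled CPM, median 74.2) and 119 to 169 CPM (median 136) in FPC-GFP. The groups did not overlap, and the log2 fold change was 1.01 ± 0.17 (SE, n = 6 per group; edgeR adjusted p = 0.00113). Cd5l, a secreted protein of macrophages that binds lipids and is a target of LXRα, had 36.8 to 80.4 CPM (median 54.9) on the control diet and 124 to 238 CPM (median 138) on the FPC diet. Its log2 fold change was 1.52 ± 0.20 (edgeR adjusted p = 0.000276). Mouse FPC-GFP 19 was the highest of its group for 7 of the 10 genes, among them Clec4f and Cd5l.

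Among receptors for dying cells and microbes, Timd4, which binds phosphatidylserine, rose without overlap from 2.43 to 4.32 CPM to 5.17 to 9.73 CPM (log2 fold change 1.11 ± 0.20, edgeR adjusted p = 0.00170). Vsig4, a complement receptor, rose by 1.07 ± 0.21 on the log2 scale (edgeR adjusted p = 0.00261), and only the highest CON-GFP mouse, at 30.6 CPM, reached the FPC-GFP range of 29.8 to 61.6 CPM. Marco, a scavenger receptor, had the largest difference among the 10 and the widest spread. CON-GFP mice had 0.65 to 7.01 CPM and FPC-GFP mice 2.64 to 23.0 CPM. The log2 fold change was 2.11 ± 0.54 (edgeR adjusted p = 0.0128), and with all 18 libraries in one fit it was not called (2.12, edgeR adjusted p = 0.162). Cd163, the receptor for haemoglobin bound to haptoglobin, was not called, with CON-GFP at 4.73 to 10.5 CPM and FPC-GFP at 6.75 to 15.3 CPM (0.53 ± 0.25, edgeR adjusted p = 0.136).

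Adgre1, which encodes F4/80, went from 4.70 to 8.25 CPM to 15.0 to 28.6 CPM without overlap, a log2 fold change of 1.56 ± 0.18 (edgeR adjusted p = 0.000158). Csf1r, the receptor for the macrophage growth factors CSF1 and IL-34, went from 13.3 to 35.6 CPM to 47.1 to 89.5 CPM, also without overlap (1.39 ± 0.22, edgeR adjusted p = 0.000893). Folr2, a folate receptor of resident macrophages, rose by 1.25 ± 0.20 on the log2 scale (edgeR adjusted p = 0.000738). Cd207 (langerin), best known from Langerhans cells of the skin, was not called either, with CON-GFP at 1.09 to 2.80 CPM and FPC-GFP at 1.28 to 5.42 CPM (0.75 ± 0.33, edgeR adjusted p = 0.112). Cd163 and Cd207 were called higher when libraries were scaled by their totals alone (0.71 and 0.96, edgeR adjusted p = 0.0484 and 0.0463), a scaling that put the median of all genes at 0.21, and Cd207 also when mouse FPC-GFP 11 was left out (0.91, edgeR adjusted p = 0.0468).

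**Figure D1:**
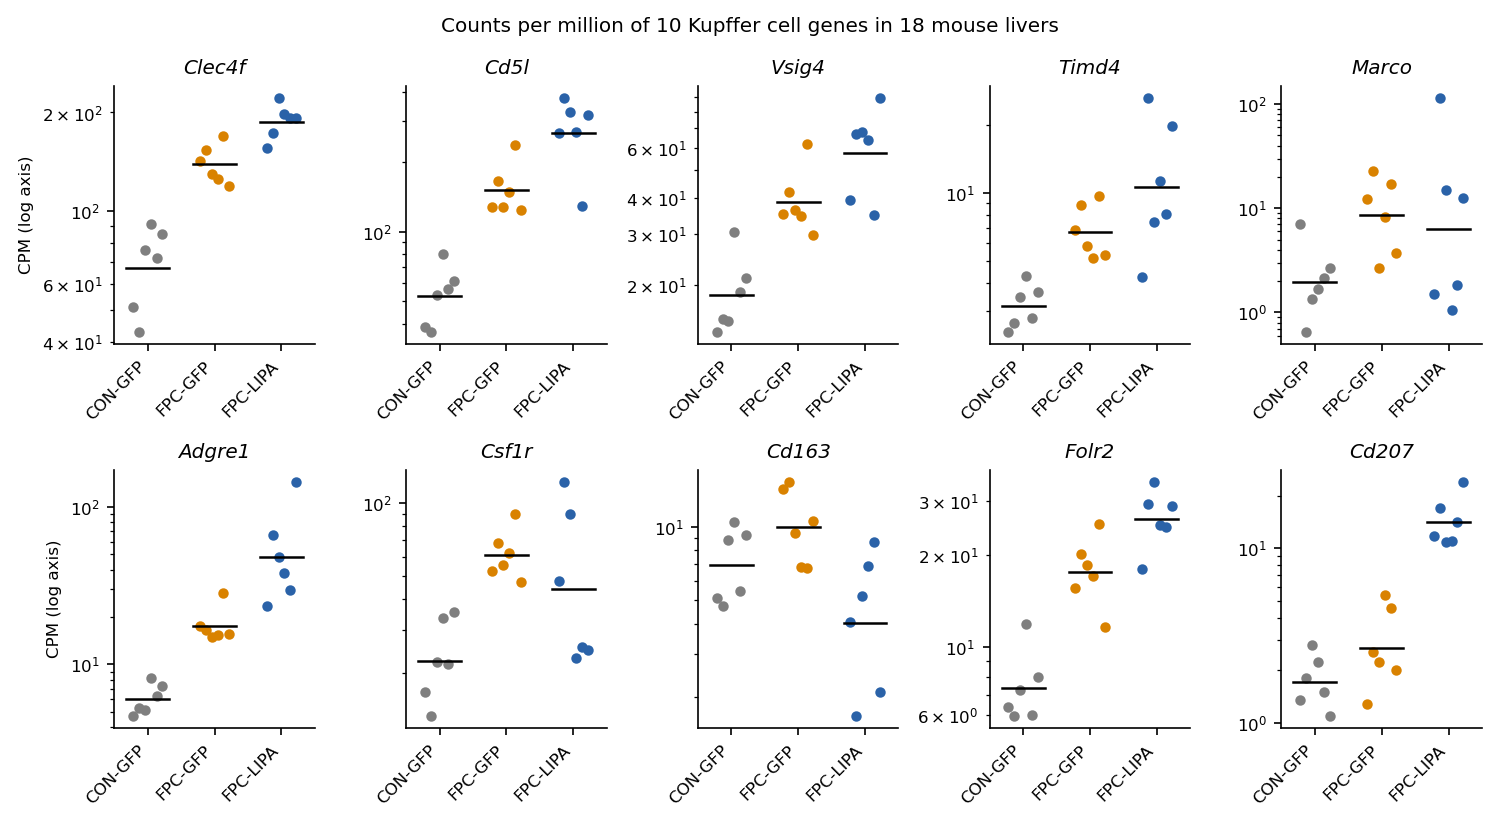
TMM-scaled CPM (log axes, one scale per panel) of the 10 Kupffer cell genes in the 18 livers. Points are mice in order of their number, black lines are geometric means of 6 mice. Cd207 sits at 10.9 to 24.1 CPM in FPC-LIPA and at or below 5.42 CPM elsewhere, and Marco spans 1.04 to 115 CPM within FPC-LIPA.

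The second comparison asked what hepatocyte LIPA added on the FPC diet. The 10 genes did not move as one: 5 were called higher (Clec4f, Cd5l, Adgre1, Folr2 and Cd207), 1 was called lower (Cd163), and Vsig4, Timd4, Marco and Csf1r were not called. Over all 14620 genes tested, 14.4% were called higher and 6.87% lower. The median log2 fold change of the 10 genes was 0.79, against 0.04 for all genes, with a range from −1.09 to 2.38. Only Cd207 had groups that did not overlap, as did 7.66% of all genes. Several calls depended on single libraries: with each library left out in turn, between 2 and 7 of the 10 were called. Calls over all genes moved too, from 886 higher and 206 lower without FPC-LIPA 36 to 3170 and 2412 without FPC-LIPA 33, against 2098 and 1004 with all 12 libraries. With each library's trend on gene length removed, Clec4f (0.42), Folr2 (0.38) and Cd163 (−0.97) were no longer called (edgeR adjusted p = 0.0632, 0.173 and 0.0758), Vsig4 went from 0.66 to 0.39 (edgeR adjusted p = 0.268), and Cd5l, Adgre1 and Cd207 were still called.

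Cd207 had 10.9 to 24.1 CPM (median 13.0) in FPC-LIPA against 1.28 to 5.42 CPM (median 2.40) in FPC-GFP. The lowest FPC-LIPA mouse was above the highest FPC-GFP mouse, and the log2 fold change was 2.38 ± 0.34 (edgeR adjusted p = 0.00790), about 5.19-fold. It was called with each library left out (2.14 to 2.62, edgeR adjusted p at most 0.0326) and also without the 3 libraries of high ribosomal share (2.15, edgeR adjusted p = 0.0214). Its neighbour Clec4f had 156 to 222 CPM (median 192) in FPC-LIPA, a log2 fold change of 0.49 ± 0.16 (edgeR adjusted p = 0.0418).

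Adgre1 had 23.4 to 145 CPM (median 42.9) in FPC-LIPA, and all mice but FPC-LIPA 31 were above the highest FPC-GFP mouse. The log2 fold change was 1.77 ± 0.40 (edgeR adjusted p = 0.0152), and mouse FPC-LIPA 37, at 145 CPM, had more than any other. Cd5l had 129 to 379 CPM (median 294) in FPC-LIPA, a log2 fold change of 0.92 ± 0.25 (edgeR adjusted p = 0.0235). In 5 FPC-LIPA mice it was at 268 CPM or more, above every FPC-GFP mouse, and in mouse FPC-LIPA 39 it was within the FPC-GFP range. Folr2 had 18.0 to 34.6 CPM (median 26.9) and a log2 fold change of 0.63 ± 0.20 (edgeR adjusted p = 0.0387).

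Cd163 went the other way. It had 1.67 to 8.64 CPM (median 4.62) in FPC-LIPA against 6.75 to 15.3 CPM (median 9.99) in FPC-GFP, and 4 FPC-LIPA mice were below every FPC-GFP mouse. It fell by 1.09 ± 0.37 on the log2 scale (edgeR adjusted p = 0.0482), the only one of the 10 called lower, and the mice with the least, FPC-LIPA 33 and 37 at 1.67 and 2.08 CPM, were the ones with the most Timd4 and Adgre1.

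Timd4 and Vsig4 were not called. Timd4 had 4.24 to 26.3 CPM (median 9.64) in FPC-LIPA, and 3 mice were above and 1 was below the FPC-GFP range (0.95 ± 0.38, edgeR adjusted p = 0.0768). Vsig4 had 35.0 to 89.4 CPM (median 65.3), with 4 mice above every FPC-GFP mouse (0.66 ± 0.25, edgeR adjusted p = 0.0650). Marco varied 110.3-fold within FPC-LIPA: mouse FPC-LIPA 33 had 115 CPM, mice 34 and 37 had 15.1 and 12.6 CPM, and mice 31, 36 and 39 had 1.04 to 1.81 CPM, below every FPC-GFP mouse. Its log2 fold change was 1.18 ± 0.95 (edgeR adjusted p = 0.361) and was −0.75 without mouse FPC-LIPA 33 (edgeR adjusted p = 0.417).

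Csf1r split the FPC-LIPA group. Mice 31, 33 and 34 had 47.6, 122 and 89.9 CPM, within or above the FPC-GFP range of 47.1 to 89.5 CPM, and mice 36, 37 and 39 had 22.9, 24.9 and 25.5 CPM, below every FPC-GFP mouse and within the CON-GFP range. The last 3 are the libraries in which ribosomal protein genes took 6.48 to 8.15% of counts. The log2 fold change was −0.13 ± 0.37 over all 6 mice (edgeR adjusted p = 0.808) and 0.49 without those 3 (edgeR adjusted p = 0.331). In the same 3 libraries Clec4f had 192 to 198 CPM and Cd207 11.1 to 24.1 CPM, and in the other 3 Clec4f had 156 to 222 CPM. Csf1r also has the longest exons of the 10 genes, 5774 bases in all, and with the gene length trend removed its log2 fold change was −0.07 (edgeR adjusted p = 0.889). Such a split was not particular to Csf1r. C1qb, another gene of Kupffer cells, had 3 FPC-LIPA mice above and 3 below every FPC-GFP mouse. Cd68 and Laptm5, macrophage genes named after their values were seen, had 2 above and 3 below, as Csf1r did. The macrophage genes Lyz2 and Mpeg1 had 6 and 5 above and 0 below. Which mice these were was not examined. The part of library quality in the split was not tested.

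The calls of Clec4f, Folr2 and Cd163 were near the threshold. Clec4f was not called in 10 of the 12 fits that left out 1 library, any but FPC-LIPA 31 and 33 (0.44 to 0.54, edgeR adjusted p from 0.0508 to 0.0886). Folr2 was not called in 9, without any FPC-GFP mouse but 19 or without FPC-LIPA 34, 36, 37 or 39 (0.54 to 0.66, edgeR adjusted p from 0.0631 to 0.0808). Cd163 was not called in 10, any but FPC-LIPA 33 and 39 (−1.24 to −0.96, edgeR adjusted p from 0.0510 to 0.101). Cd5l was not called without FPC-GFP 11, 13 or 20 (0.87 in each, edgeR adjusted p from 0.0536 to 0.0541). Conversely, Timd4 was called without FPC-LIPA 31 (1.14, edgeR adjusted p = 0.0295), and Vsig4 without FPC-LIPA 31 or FPC-GFP 19 (0.77 and 0.82, edgeR adjusted p = 0.0411 and 0.0451). Without the 3 libraries of high ribosomal share, Cd207, Adgre1 (1.35, edgeR adjusted p = 0.0418) and Cd5l (1.08, edgeR adjusted p = 0.0325) were called. Adgre1 was called with each library left out and lost its call with sample sheet numbers 55 to 68 alone, which leave out FPC-LIPA 37 and FPC-GFP 20 (1.18, edgeR adjusted p = 0.0647).

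**Figure D2:**
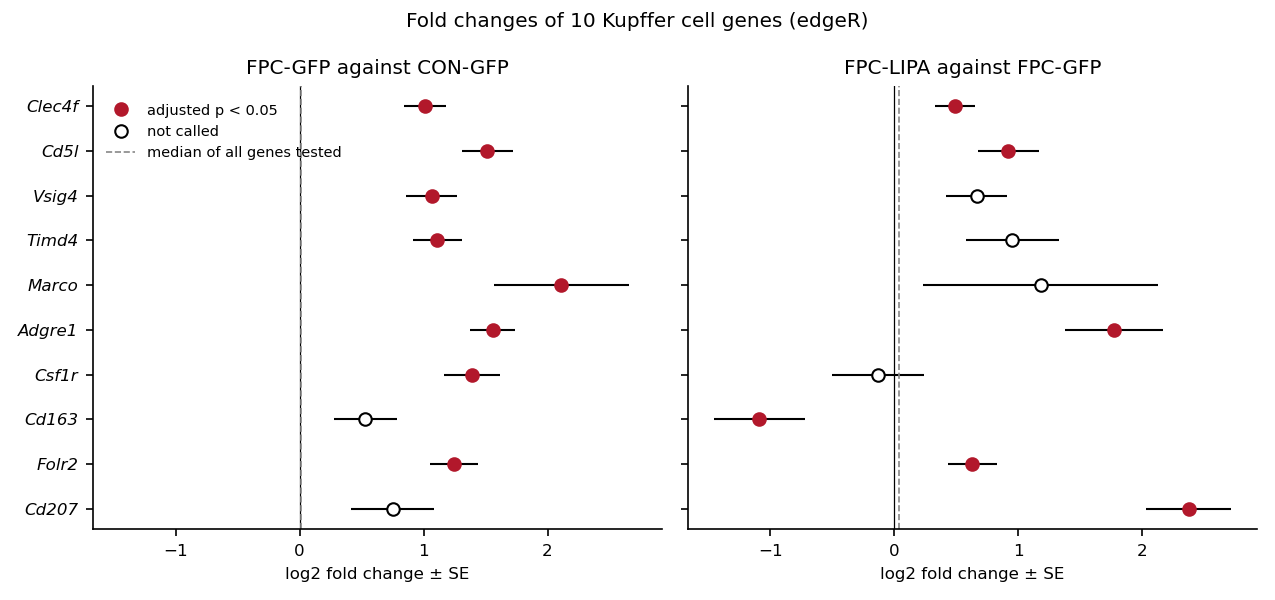
Log2 fold changes with standard errors of the 10 genes in FPC-GFP against CON-GFP and in FPC-LIPA against FPC-GFP, 6 mice per group. Filled points passed the adjusted p threshold. On the diet all 10 points lie right of 0, from 0.53 to 2.11, and with LIPA they run from −1.09 (Cd163) to 2.38 (Cd207).

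FPC-LIPA was also compared with CON-GFP, which shares its libraries with the comparisons above. Of the 10 genes, 9 were called higher, all at least 2-fold, against 14.7% higher and 8.2% lower of all 14433 genes tested. The median log2 fold change was 1.95, against 0.04 for all genes. For 6 (Clec4f, Cd5l, Vsig4, Adgre1, Folr2 and Cd207) the groups did not overlap, as for 11.1% of all genes. Cd207 differed by 3.09 ± 0.29 (edgeR adjusted p = 1.83e-05), Adgre1 by 3.30 ± 0.41 (edgeR adjusted p = 0.000125), Cd5l by 2.42 ± 0.27 (edgeR adjusted p = 4.85e-05), Timd4 by 2.04 ± 0.39 (edgeR adjusted p = 0.00212) and Clec4f by 1.48 ± 0.20 (edgeR adjusted p = 0.000220). Csf1r differed by 1.25 ± 0.42 (edgeR adjusted p = 0.0413), a call lost without CON-GFP 1, 2, 3 or 7 or FPC-LIPA 33 or 34 (edgeR adjusted p from 0.0752 to 0.0905). Marco differed by 3.30 ± 1.04 (edgeR adjusted p = 0.0327) and by 1.34 without FPC-LIPA 33 (edgeR adjusted p = 0.152). The Marco call was also lost without CON-GFP 2, 3, 6, 7 or 8 (edgeR adjusted p from 0.0627 to 0.0701). Cd163 was not called (−0.58 ± 0.36, edgeR adjusted p = 0.25), and its medians were 7.14 CPM for CON-GFP and 4.62 CPM for FPC-LIPA.

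**Figure D3:**
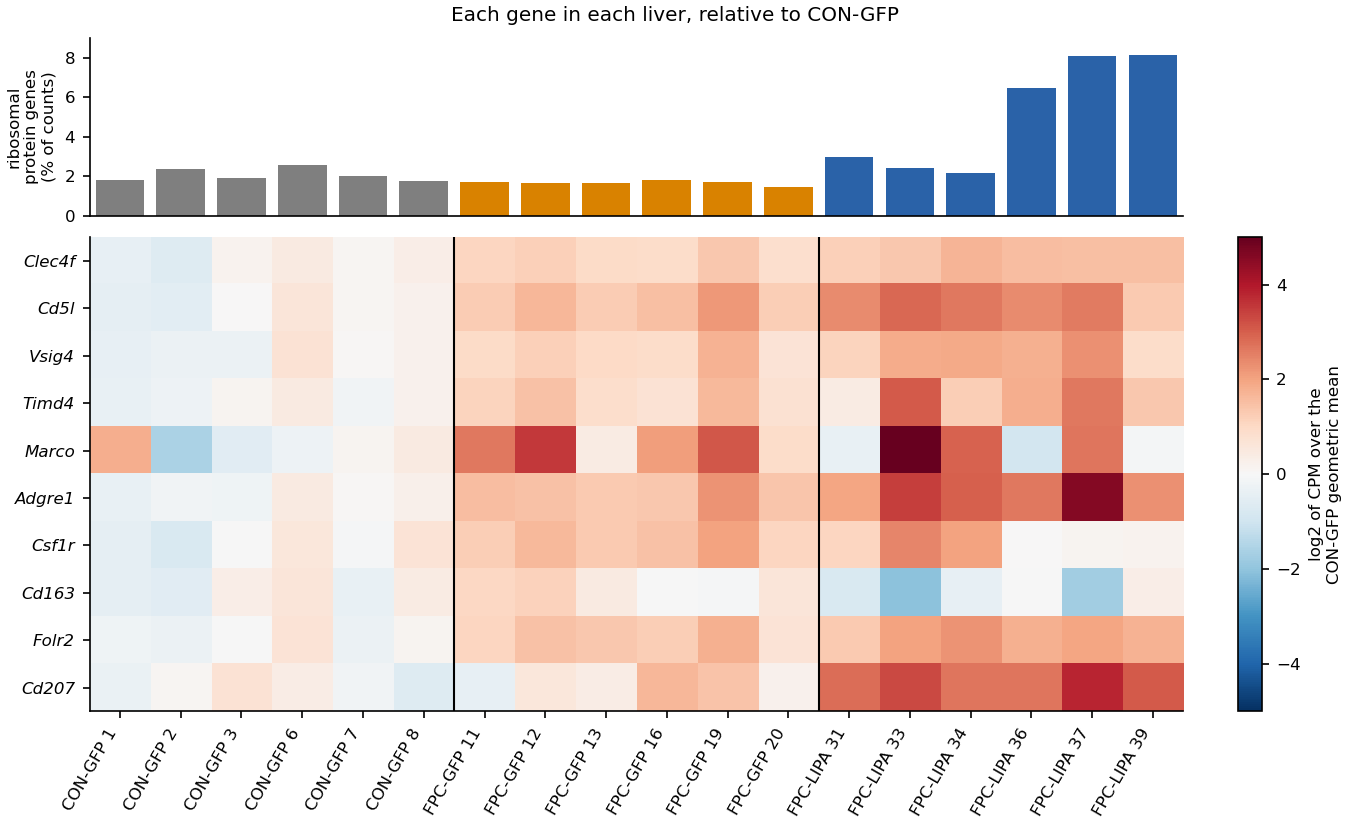
Top, share of counts on ribosomal protein genes in each of the 18 libraries. Bottom, log2 of each gene's CPM over its geometric mean in CON-GFP, one column per mouse, red higher and blue lower. Csf1r is pale in FPC-LIPA 36, 37 and 39, the columns with 6.48 to 8.15% ribosomal protein counts, while Cd207 is red in all 6 FPC-LIPA columns.

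To see whether the genes kept a fixed proportion to one another, each was divided by Clec4f in the same liver, and the log2 ratios were compared by exact two-sided permutation tests with Benjamini-Hochberg adjustment over 27 ratios (9 genes in 3 comparisons). The smallest p such a test can give is 0.00216, and it is higher with 1 library left out. Adjusted p-values can rise for that reason alone, so a call lost in those tests does not by itself show dependence on the library. On the diet, Vsig4 and Timd4 differed from Clec4f by log2 ratios of only 0.04 and 0.05 (adjusted exact permutation p = 0.780 and 0.760). Cd5l per Clec4f was 1.39-fold higher in FPC-GFP, with no overlap (0.90 to 1.40 against 0.70 to 0.88; adjusted exact permutation p = 0.0117). Adgre1 and Csf1r per Clec4f were 1.42-fold and 1.32-fold higher (adjusted exact permutation p = 0.0325 for both), but Adgre1 missed the threshold in 10 and Csf1r in 8 of the 12 tests that left out 1 library (adjusted exact permutation p at most 0.0649). Cd163 per Clec4f had a log2 difference of −0.52 (adjusted exact permutation p = 0.122), and −0.61 without CON-GFP 7 (adjusted exact permutation p = 0.0438).

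With LIPA, 3 of the 9 ratios passed the test. Cd207 per Clec4f was 3.95-fold higher in the LIPA group, between 0.0490 and 0.125 against 0.00897 to 0.0430, with no overlap (adjusted exact permutation p = 0.0117). Cd163 per Clec4f was 0.299 times that of FPC-GFP (adjusted exact permutation p = 0.0195). Adgre1 per Clec4f was 2.01-fold higher (adjusted exact permutation p = 0.0250, and 0.0501 without FPC-GFP 12, 13 or 16). The ratios of Cd5l, Vsig4, Timd4, Marco, Folr2 and Csf1r missed the threshold in this comparison. Csf1r per Clec4f had a log2 difference of −0.89 (adjusted exact permutation p = 0.211), and −1.21 without FPC-LIPA 33 (adjusted exact permutation p = 0.0351). Cd5l per Clec4f had 0.40 (adjusted exact permutation p = 0.277), and 0.61 without FPC-LIPA 39 (adjusted exact permutation p = 0.0260). Against CON-GFP, the ratios of Cd207 (2.99-fold higher), Adgre1 (2.85-fold higher) and Cd163 (0.209 times) did not overlap (adjusted exact permutation p = 0.0117 for each). Cd5l per Clec4f was 1.83-fold higher (adjusted exact permutation p = 0.0409), and missed the threshold without any one library but FPC-LIPA 39 (adjusted exact permutation p from 0.0638 to 0.0818).

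**Figure D4:**
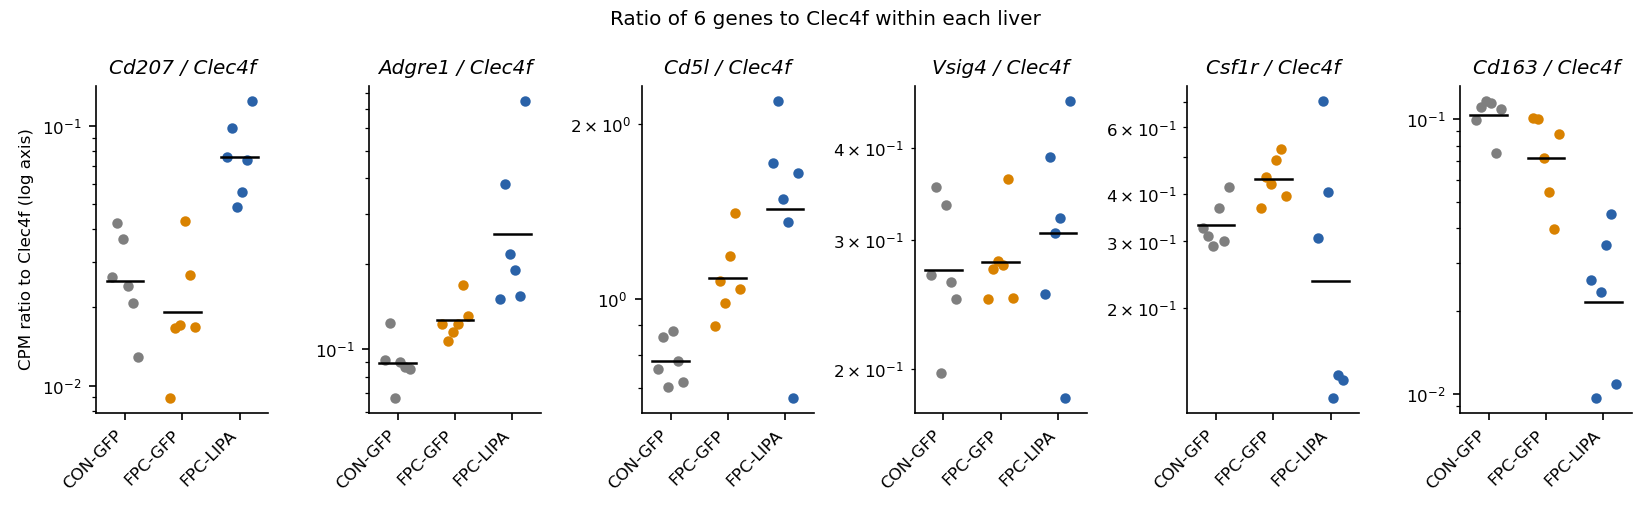
CPM of 6 genes divided by that of Clec4f in the same liver (log axes), with points for mice and lines for geometric means of 6 mice. Cd207 per Clec4f in FPC-LIPA, from 0.0490 to 0.125, lies above both GFP groups, and Cd163 per Clec4f runs from 0.00965 to 0.0450 in FPC-LIPA against 0.0398 to 0.101 in FPC-GFP.

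Per length of exon (RPKM, here TMM-scaled CPM divided by the exon length in kilobases), Clec4f (28.3 ± 7.73, SD, n = 6) and Cd5l (26.7 ± 7.86) were the most abundant of the 10 in CON-GFP and overlapped. Vsig4 followed at 12.9 ± 4.25, above Folr2 (4.90 ± 1.46) in every mouse without overlap, and Cd207 was last at 1.18 ± 0.41, overlapping with Marco, Cd163 and Timd4. In FPC-GFP, Cd5l (76.3 ± 21.4) was above Clec4f (56.7 ± 7.64) in all 6 mice though their ranges overlapped, and Cd207 (1.97 ± 1.06) and Cd163 (1.93 ± 0.67) were last. In FPC-LIPA the order was Cd5l (139 ± 42.1), Clec4f (76.4 ± 9.13) and Vsig4 (40.7 ± 13.6). Adgre1, Folr2, Marco, Cd207 and Csf1r came next, at means of 18.0 to 9.60 RPKM with overlap between neighbours. This order of means did not hold in most mice. Adgre1 was above Folr2 in 2 of 6, and Marco (12.8 ± 23.3, with FPC-LIPA 33 at 59.8) above Cd207 in 2 of 6. Timd4 was at 5.90 ± 3.89, and Cd163 at 0.87 ± 0.50 was below Timd4 without overlap.

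Within groups the genes varied together in part. After the group means were removed, the 45 pairs had a median Pearson r of 0.42 over the 18 mice, given as a description because the mice share group sizes and scaling factors. Cd5l and Vsig4 (r = 0.85), Vsig4 and Adgre1 (r = 0.84) and Vsig4 and Folr2 (r = 0.80) were closest, and 18 of the pairs were above 0.5. Cd163 ran opposite to the mean of the other 9 (r = −0.43), and Cd207 followed it weakly (r = 0.24). In CON-GFP alone, over 6 mice, Cd163 had r = 0.88 with Clec4f and 0.96 with Timd4. The values were 0.03 and 0.16 in FPC-GFP, and 0.36 and −0.67 in FPC-LIPA. Outside the 10, of 12725 genes whose mean reached 1 CPM, those closest to the mean of the 10 after group means were removed were Cfp (properdin, r = 0.94), Slc11a1 (r = 0.93), Itgal (r = 0.90), Clec4a1 (r = 0.89) and Pilrb1 (r = 0.86), over 18 mice. Cfp had 19.7 ± 5.19 CPM in CON-GFP, 43.4 ± 11.4 in FPC-GFP and 72.4 ± 24.5 in FPC-LIPA (SD, n = 6), and was called higher in both steps (1.14 ± 0.19, edgeR adjusted p = 0.00122, and 0.80 ± 0.24, edgeR adjusted p = 0.0325).

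Of 9 transcription factors of Kupffer cells described here, 2 were called higher on the diet, with a median log2 fold change of 0.31. Nr1h3 and Id3, the most abundant, were not called in either comparison (−0.09 and 0.31 on the diet, edgeR adjusted p = 0.566 and 0.321, and 0.25 and 0.13 with LIPA, edgeR adjusted p = 0.399 and 0.725). These are whole-liver levels, and the part of other liver cells in them was not tested. The called genes are named after their values were seen. Spi1, which encodes PU.1, and Spic rose on the diet by 1.42 ± 0.22 and 1.08 ± 0.25 (edgeR adjusted p = 0.000732 and 0.00805). With LIPA, 4 of the 9 were called higher, with a median of 0.61: Spic by 1.62 ± 0.38, Maf by 1.60 ± 0.47, Zeb2 by 1.30 ± 0.40 and Tfec by 1.16 ± 0.20 (edgeR adjusted p = 0.0176, 0.0310, 0.0350 and 0.00966).

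Of 12 niche signals and their receptors, 5 were called higher on the diet and none lower, with a median of 0.37, and 1 (Bmp2, named after its value was seen, 1.56 ± 0.35, edgeR adjusted p = 0.0154) was higher with LIPA, with a median of −0.19. Eng, a BMP co-receptor of endothelium, rose on the diet by 0.59 ± 0.15 (edgeR adjusted p = 0.0108), and Notch1 was not called (0.27 ± 0.14, edgeR adjusted p = 0.168). Of 12 other genes of Kupffer cells, 9 were higher on the diet (median 0.83) and 2 with LIPA (median 0.26). C1qb, a chain of the complement component C1q, rose on the diet by 1.34 ± 0.18 (edgeR adjusted p = 0.000314) and had 0.20 ± 0.25 with LIPA (edgeR adjusted p = 0.566). The latter value averages 3 FPC-LIPA mice above and 3 below every FPC-GFP mouse. Slc40a1, the iron exporter ferroportin, had −0.07 ± 0.19 on the diet (edgeR adjusted p = 0.819) and rose by 0.82 ± 0.28 with LIPA (edgeR adjusted p = 0.0484).

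Genes shared by many macrophages were also called. Of 10 pan-macrophage and leukocyte genes, 9 were higher on the diet (median 1.24) and 7 with LIPA (median 1.08), none lower, and their summed level was 106 to 197 CPM in CON-GFP, 235 to 497 in FPC-GFP and 642 to 1081 in FPC-LIPA. Over the same groups the summed level of the 10 Kupffer cell genes was 129 to 275, 369 to 650 and 469 to 996 CPM. Both sums mostly follow few genes. In FPC-LIPA, Lyz2 averaged 481 CPM of a mean sum of 805. Cd5l and Clec4f averaged 282 and 189 CPM of a mean sum of 729. Lyz2 (lysozyme) rose by 1.44 ± 0.27 and then by 1.88 ± 0.30 (edgeR adjusted p = 0.00229 and 0.00844), and Mpeg1 (perforin-2) by 0.67 ± 0.14 and 0.71 ± 0.21 (edgeR adjusted p = 0.00386 and 0.0329). Ptprc, which encodes the leukocyte antigen CD45, was not called on the diet (0.50 ± 0.23, edgeR adjusted p = 0.118) and rose by 1.67 ± 0.38 with LIPA (edgeR adjusted p = 0.0159). Of the genes of monocyte-derived and lipid-associated macrophages, 8 of 12 were higher on the diet (median 1.14) and 8 of 13 with LIPA (median 1.14). Their summed level was 48.2 to 81.3, 108 to 215 and 180 to 407 CPM, and none of the 13 was at 0 in all libraries of a group. Spp1 (osteopontin) rose on the diet (0.95 ± 0.22, edgeR adjusted p = 0.00712) and had 0.36 ± 0.41 with LIPA (edgeR adjusted p = 0.528), and Cd9 rose in both (1.39 ± 0.25 and 0.68 ± 0.22, edgeR adjusted p = 0.00170 and 0.0434). The part of other macrophages in the levels of the 10 genes was not tested.

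**Figure D5:**
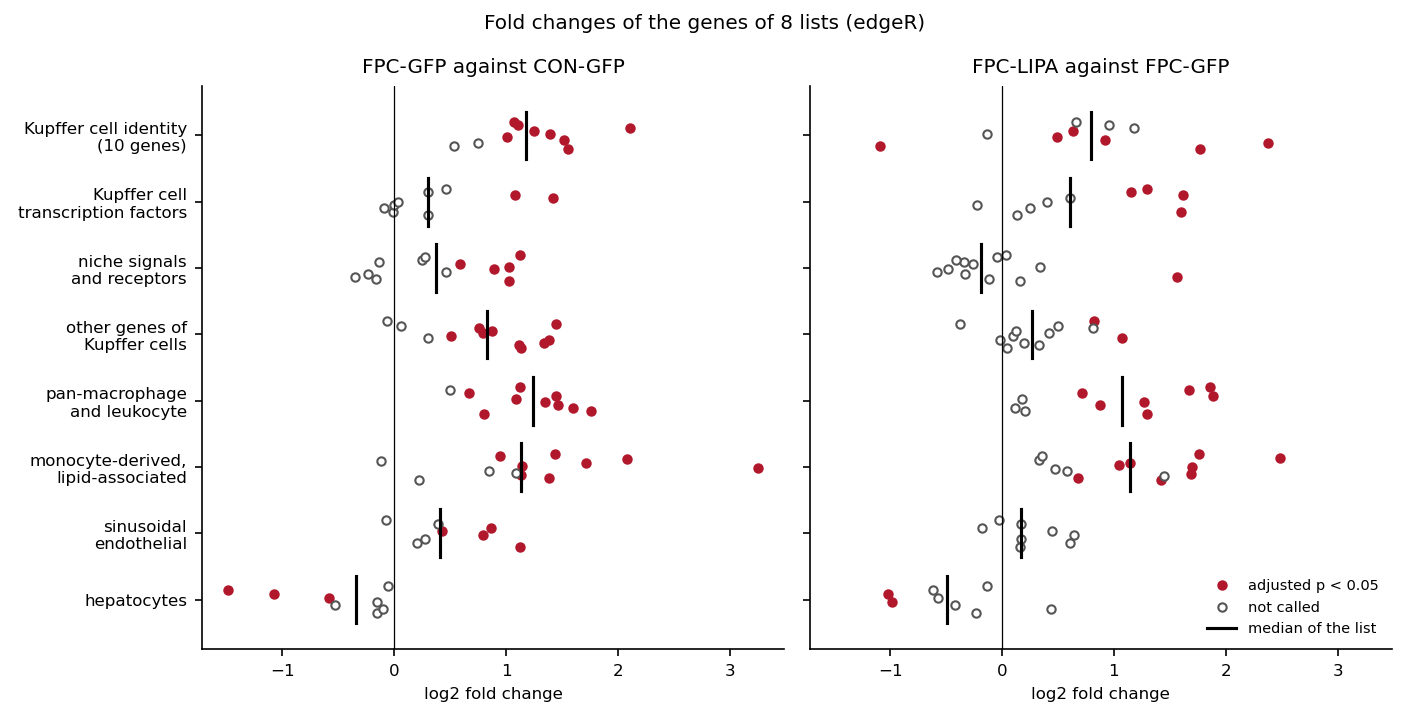
Log2 fold changes of the tested genes of 8 lists in FPC-GFP against CON-GFP and in FPC-LIPA against FPC-GFP. Each point is a gene, filled where it passed the adjusted p threshold, and bars are the medians of the lists. On the diet the medians of the Kupffer cell identity, pan-macrophage and monocyte-derived lists lie between 1.14 and 1.24, and with LIPA between 0.79 and 1.14.

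Markers of other cell types were called as well. Of 5 red blood cell genes none was called on the diet and 2 were higher with LIPA, and their summed level was 306 to 586, 283 to 488 and 528 to 2559 CPM. Hbb-bs, a haemoglobin chain, rose with LIPA by 3.33 ± 0.49 (edgeR adjusted p = 0.00790), and Alas2 had −0.61 (edgeR adjusted p = 0.0870). Of tested genes of neutrophils, B cells, and T and NK cells, 2 of 3, 2 of 4 and 2 of 5 were higher with LIPA. On the diet none of those of neutrophils and B cells was called. Of T and NK cells 1 of 3 was lower there (Cd4, −2.04 ± 0.41, edgeR adjusted p = 0.00331). These lists held 5, 4 and 6 genes, of which 3 each passed the filter on low counts in the diet comparison. Neither of the T and NK cell genes called with LIPA passed it there, nor did every B cell gene called with LIPA. The counts with LIPA thus depend on the filter. Summed over the whole lists, levels in FPC-LIPA were 6.92 to 18.2, 6.01 to 19.1 and 2.60 to 9.47 CPM, against 2.55 to 5.92, 1.15 to 6.87 and 0.93 to 2.97 CPM in FPC-GFP. In CON-GFP they were 1.72 to 3.89, 1.93 to 5.80 and 3.08 to 5.18 CPM. Of 8 sinusoidal endothelial genes, 4 were higher on the diet and none with LIPA. Of 8 hepatocyte genes, 3 were lower on the diet and 2 with LIPA, and none of 5 cholangiocyte genes was called. Stellate cell genes were higher in 3 of 8 on the diet and 4 of 8 with LIPA, among the latter Dcn (0.88, edgeR adjusted p = 0.0449) and Col3a1 (1.70, edgeR adjusted p = 0.0174). The part of these cells, and of blood left in the tissue, in the fold changes of the Kupffer cell genes was not tested.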

How the data were processed

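Whole-liver RNA was sequenced in 18 mice, 6 per group, with total counts from 16632146 to 37739301. The authors trimmed the paired reads with Trimmomatic, mapped them with HISAT2 2.1.0 to GRCm38 (mm10) and assigned them to genes with Feature Counts of Subread. The deposited values are these raw counts, without normalization. The strand setting and annotation version are not given in the sources used here, and both a stranded and an unstranded kit are named, so overlapping and antisense genes cannot be told apart. Mice were grouped by their labels, and 5 of 23 columns were not used. Of 55487 genes, 55227 were found in GENCODE M21, which gave positions and exon lengths.

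Each comparison was fitted on its 12 libraries with edgeR 4.0.16 in R 4.3.3 (filterByExpr, TMM, quasi-likelihood test, Benjamini-Hochberg adjustment over all genes tested). Genes with an adjusted p under 0.05 were called. SE was the log2 fold change divided by the square root of F. CPM was TMM-scaled over 18 libraries, and log2 CPM for the correlations used a prior count of 2. P-values test differences between groups, with mice as the replicates. Fits were also run on simulated counts with the same dispersion for all genes of a comparison. These lack the wide spread of FPC-LIPA and cannot check calls near the threshold there. DESeq2 1.42.0, limma 3.58.1, Python 3.11.15, scipy 1.17.1 and pandas 2.3.3 were also used.

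All 10 genes were named. Of every other list the 2 most abundant genes by mean CPM were eligible, as were Ptprc, Lipa, and the 5 genes most like the mean of the 10. For 1 gene of the transcription factor list the result is not reported here, and the counts and median of that list leave it out. The genes, lists and tests were chosen with earlier results of these data known. Alternatives were other scalings, tests and filters, 1 fit of all libraries, sample sheet numbers 55 to 68, removal of 3 FPC-LIPA libraries or of a gene length trend, other thresholds, 0.5 CPM added before ratios, and each library left out.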

Additional observations from a re-analysis of the deposited data

Results flagged for a closer look

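In each of the 30 sets of 6 values (10 genes in 3 groups), the gap between the highest or lowest mouse and its neighbour was divided by the range of the group, on the log2 CPM scale. Chance takes about 1 in 20 groups past the critical value of 0.625, and 2 of 30 were past it. Adgre1 was at 28.6 CPM in FPC-GFP 19, far above the other 5 mice of its group, with a gap of 0.763 of the range in log2 CPM and 0.817 in CPM. Cd5l was at 129 CPM in FPC-LIPA 39, far below the other 5, with a gap of 0.676 of the range in log2 CPM. On the CPM scale, a choice made after seeing the data, 6 sets were past 0.625, each through its highest mouse. Beside Adgre1 in FPC-GFP 19 they were Marco in FPC-LIPA 33 (115 CPM, gap 0.877) and CON-GFP 1 (7.01 CPM, 0.685), Folr2 in CON-GFP 6 (11.9 CPM, 0.654), Adgre1 in FPC-LIPA 37 (145 CPM, 0.648) and Cd5l in FPC-GFP 19 (238 CPM, 0.639).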

How the results depend on the processing

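Of the 10 genes, 8 were called in FPC-GFP against CON-GFP, and 7 to 10 under the alternatives, of which leaving out 1 library gave 8 to 9. In FPC-LIPA against CON-GFP 9 were called, and 7 to 9 under the alternatives and with 1 library left out. In FPC-LIPA against FPC-GFP 6 were called. There were 3 with library size alone, 3 with the gene length trend removed, 3 without the 3 libraries of high ribosomal share, 3 with a 2-fold change also required, 1 with sample sheet numbers 55 to 68 and 1 at an adjusted p under 0.01. Leaving out 1 library gave 2 to 7, with 2 when any of FPC-GFP 11, 13 and 20 was dropped and 3 when any of FPC-GFP 12 and 16 and FPC-LIPA 34, 36 and 37 was. DESeq2's Wald test, edgeR's exact test and 1 fit of all libraries gave 8, and no filter gave 4. The cause was not tested. Over all genes, calls in this comparison went from 2098 higher and 1004 lower to 100 and 4 with sample sheet numbers 55 to 68. Library size alone moved the median of all genes to 0.21 on the diet and to −0.09 with LIPA.

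Signs turned for values that were not called. The log2 fold change of Marco with LIPA was −0.75 without FPC-LIPA 33, and up to 1.52 without others. That of Csf1r was 0.49 without the 3 libraries of high ribosomal share, and 0.023, 0.0091 and 0.0050 without FPC-LIPA 36, 39 and 37, down to −0.53 without FPC-LIPA 33. Among log2 ratios to Clec4f, Timd4 on the diet was −0.053 with 0.5 CPM added and from −0.0049 (without CON-GFP 7) to 0.13 with 1 library left out, and Vsig4 was −0.055 without CON-GFP 3, −0.038 without FPC-GFP 19 and up to 0.11. Timd4 was −0.056 against FPC-GFP (up to 0.44 without others) and −0.0057 against CON-GFP without FPC-LIPA 33. Marco against CON-GFP was −0.66 without FPC-LIPA 33, −9.9e-05 without FPC-LIPA 34 and up to 0.74.

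Of the fold changes of the 10 genes under alternatives, pooled over the comparisons, 598 kept their direction and side of the threshold, 65 lost and 12 gained a call, and 5 turned. The changes were uneven. In FPC-LIPA against FPC-GFP, Clec4f and Cd163 changed in 15 and Folr2 in 14 of 23 alternatives, and Cd207 in 0. In FPC-GFP against CON-GFP no gene changed in more than 2 of 22. Of the ratios, 308 kept both, 32 lost and 3 gained a call, and 8 turned. No paired analysis was possible because the groups share no mouse numbers.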
